A study of Schizosaccharomyces pombe with 4 samples.

Results

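The DNA described here is the outermost 34.06 kb of the right end of chromosome II of the fission yeast Schizosaccharomyces pombe, the side of that end which carries the helicase gene tlh2. It was taken by position alone, as the 681 tiles, of 43993 on the array, whose lower coordinate on chromosome 2 of the array lies from 4507501 to 4541560. Each tile is a 60-base probe and tiles start 50 bp apart. The reference annotation places 36 genes there: 5 protein-coding genes, 4 pseudogenes and 27 long non-coding RNA genes, all with at least 3 tiles. New histone H3 was measured in 4 genotypes, wild type (WT), clr3D, IRD2 (written IR-D2 in the genotype label, which does not say what it removes) and the double mutant IRD2 clr3D, with 1 array each. Every strain carried the plasmid pINV1-H3.2-FLAG, grew without leucine in 8% glucose, was held in S phase with 15 mM hydroxyurea for 4 h and was then kept for 2 h in 4% sucrose with 15 mM hydroxyurea, which turns on the FLAG-tagged H3. Cells were fixed with 1% formaldehyde for 20 min, and DNA bound to anti-FLAG gel was labelled with Cy5 and whole-cell extract DNA with Cy3. All values are log2 of the Cy5 over Cy3 ratio minus the median of the array, so a value of 0 is the ratio of a typical tile and a high value is DNA where FLAG-tagged H3 made after the shift had entered chromatin. An array averages over all cells, so less new H3 in every cell and fewer cells with new H3 cannot be told apart.

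Chromosome ends of fission yeast are packed in heterochromatin, in which nucleosomes carry methylated lysine 9 of H3 and are bound by HP1 proteins such as Swi6. Clr3 is a histone deacetylase of the SHREC complex that silences heterochromatin and is known to hold down the exchange of its histones. The tlh genes encode RecQ-type helicases of the chromosome ends and contain DNA related to the dh repeats of the centromeres, from which RNA interference can start heterochromatin; the telomere protein Taz1 provides another start.

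The relation of tlh2 to the centromere shows in its sequence. A BLAST search of tlh2 against the outer repeats of centromere II gave as its best match a stretch of 505 aligned positions with 86.1% identity. Its most similar ungapped 60 bases are shown here, from the reference assembly ASM294v3 (RefSeq), 5′ to 3′ on the plus strand, at chrII:4528727-4528786 for tlh2 and chrII:1610618-1610677 for the outer repeat. Capitals mark the bases that differ, and 57 of 60 are identical.
tlh2: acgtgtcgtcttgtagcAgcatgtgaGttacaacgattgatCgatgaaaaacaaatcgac
centromere II outer repeat: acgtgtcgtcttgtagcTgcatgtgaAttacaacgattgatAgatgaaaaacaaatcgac

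Over the 681 tiles the median share of G and C was 35%, against 36.7% over all tiles of the array. It was 40.8% in tlh2 and 30% in the DNA beyond tlh2. The next 3 sequences are 2 tiles with extreme results and the outermost tile, with runs of 4 or more A or of 4 or more T in capitals. They hold 10%, 10% and 16.7% of G and C, less than the median tile. The first is the tile with the highest clr3D minus WT difference, at chrII:4506351-4506410 (1.15). The second is the tile with the lowest IRD2 minus WT difference, at chrII:4539551-4539610 (-1.53). The third is the outermost tile of the chromosome end, at chrII:4539701-4539760. All are plus-strand sequence of ASM294v3, placed as described under the processing of the data, and the extremes were taken among tiles well above background in every array.
highest clr3D minus WT: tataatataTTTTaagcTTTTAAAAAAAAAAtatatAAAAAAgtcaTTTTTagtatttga
lowest IRD2 minus WT: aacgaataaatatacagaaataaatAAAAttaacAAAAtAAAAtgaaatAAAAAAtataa
outermost tile: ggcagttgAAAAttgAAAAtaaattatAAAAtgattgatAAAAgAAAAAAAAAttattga

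The ratio of the first of these tiles was 0.014 in WT, 1.16 in clr3D, 0.28 in IRD2 and 0.29 with both mutations, that of the second 0.46 in WT, 0.018 in clr3D, -1.07 in IRD2 and -0.41 with both mutations, and that of the outermost tile -0.31 in WT, -0.21 in clr3D, -1.16 in IRD2 and -0.83 with both mutations. Such runs are common on these tiles and no mark of the chromosome end: 458 of 681 tiles (67.3%) hold one, against 70.3% of all 41974 placed tiles of chromosome II. The share was 77.4% in the DNA beyond tlh2 and 50% in tlh2.

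The 34.06 kb were divided at gene ends into 4 stretches, named from the centromere side outwards. The inner stretch (193 tiles, 4507501 to 4517160) holds SPBCPT2R1.01c to SPBCPT2R1.05c. The middle stretch (231 tiles, 4517151 to 4528710) holds the other 3 pseudogenes and non-coding RNA genes. Then comes tlh2 itself (120 tiles, 4528701 to 4534710), and last the terminal stretch (137 tiles, 4534701 to 4541560), which holds non-coding RNA genes and no other annotated gene. Most of this DNA is repeated. Of the inner tiles 0 matched a single place in the reference at 54 or more of 60 bases, of the middle tiles 3, of the tlh2 tiles 8 and of the terminal tiles 95. Other copies lay mainly at the left end of chromosome I, with matches for 90.7% of the inner, 94.4% of the middle and 93.3% of the tlh2 tiles, where tlh1 matches tlh2 at 99.98% of 5662 aligned positions. The left end of chromosome II matched 87% of the inner tiles. A tile that matches several places reports their sum, so values of the first 3 stretches are shared between chromosome ends. In the reference the terminal stretch mostly matches this end alone, and 30.7% of its tiles have a further match within the same end. The reference of chromosome I begins at base 1 within the tlh1 match, so copies of the terminal DNA there cannot be counted. A single place in the reference is therefore not proof of a single copy. The WT extract median was 1.17 in the terminal stretch and -0.052 along the arms of chromosome II, and copy number was not tested.

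The 4 arrays came from 1 slide and 1 scan, and 677 of the 681 tiles were well above background in both channels of all of them. The gene clr3 itself lies outside the tiled DNA analysed here, so its deletion was not checked. In the extract channel 8 tiles elsewhere on chromosome II had lost over 5 log2 units of DNA against WT in IRD2 (median -8.63), with -8.14 in the double mutant and -0.67 in clr3D, and 0 of these tiles lie in the DNA described here. The noise of a single tile in the difference of 2 arrays was estimated at an SD of 0.079 to 0.17. It is the SD of the steps between neighbouring tiles, divided by the square root of 2. Neighbouring tiles overlap, so it is a rough figure. With 1 array per genotype there is no replicate check of any difference, and the number of arrays limits the precision.

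In WT cells new H3 along the chromosome end stood near or above the level of a typical tile. The median ratio of the 681 tiles was 0.15 (SD between tiles 0.36). It was -0.031 in the inner stretch, 0.23 in the middle stretch, 0.23 in tlh2 and 0.19 in the terminal stretch, with SDs between tiles of 0.28, 0.35, 0.22 and 0.49. The DNA just inside is called the inner part of the right end (317 tiles, 4491601 to 4507510) and begins within gal1. It was lower at -0.43 (SD 0.29), and the outer repeats of centromere II (584 tiles) stood at 0.093. In 1 kb bins the WT ratio was highest in the bin at 4536501 to 4537510, within the terminal stretch (0.83), and in that at 4518501 to 4519510, within the middle stretch (0.80). It was lowest in the bins of the outermost 2.06 kb, at -0.33 and -0.27.

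**Figure D1:**
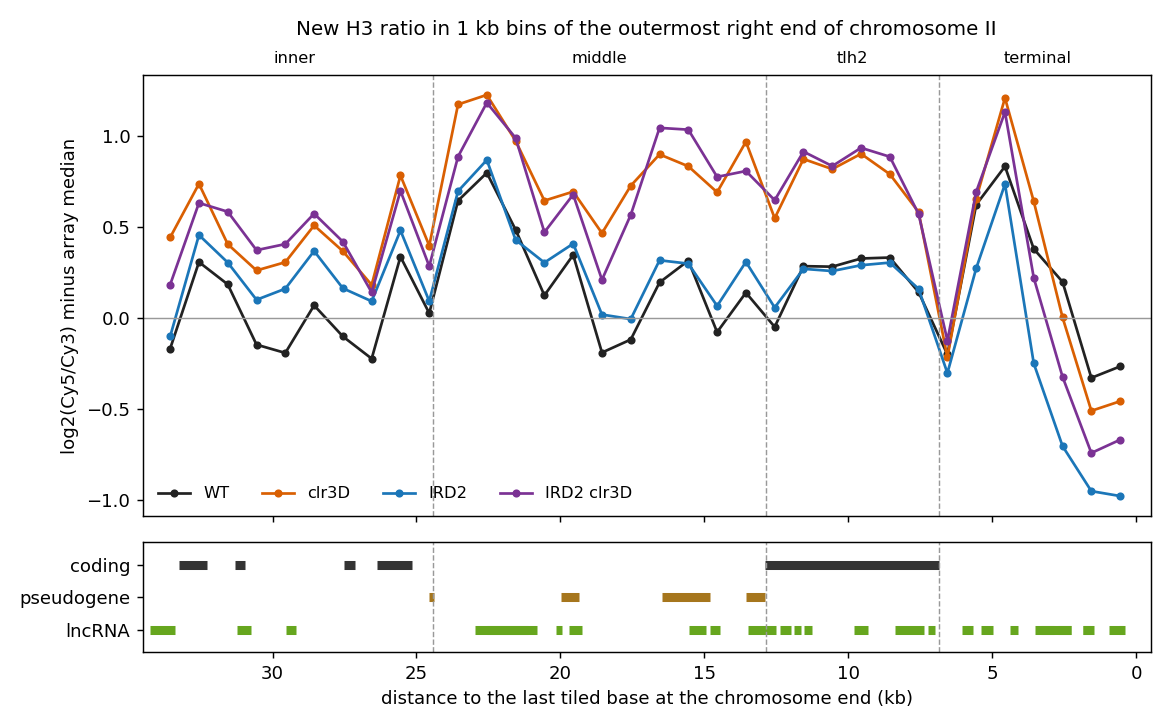
Mean log2(Cy5/Cy3) minus the array median in 1 kb bins (20 tiles each) against the distance in kb to the last tiled base of the chromosome end, with 1 line per array and annotated genes below by type. The clr3D and double mutant lines run above the WT and IRD2 lines up to the outer end of tlh2, and the 4 lines part in another order in the last 4 kb, where IRD2 is lowest.

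Setting clr3D against WT asks whether the deacetylase limits the entry of new H3 here. The ratio was higher in clr3D along the inner stretch, the middle stretch and tlh2, with no common direction beyond tlh2. Most of this difference lay in a lower extract signal, as the single channels given further on show. The median difference over all 681 tiles was 0.45 (SD between tiles 0.30), with 525 tiles higher by over 0.3, which is 77.1% of them against 7.28% of all tiles of the array. By stretch the median was 0.43 in the inner (SD 0.14), 0.55 in the middle (SD 0.21) and 0.53 in tlh2 (SD 0.13), and all tiles of these stretches were higher in clr3D. With loess the tlh2 median was 0.29. In the terminal stretch it was -0.024 (SD 0.29), with 65 tiles higher and 72 lower. Along the arms of chromosome II the median was -0.016 (SD 0.17).

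By distance, the difference lay between 0.22 and 0.61 over the 10 bins of the inner stretch and was largest in the bin from 18.06 to 17.05 kb from the end, at 4523501 to 4524510, in the middle stretch. There the ratio was -0.12 in WT, 0.73 in clr3D, -0.0057 in IRD2 and 0.57 with both mutations, a clr3D minus WT difference of 0.85 (SD between 20 tiles 0.16). Over the last 3 bins before tlh2 it was 0.52, 0.77 and 0.83, and over the 6 bins of tlh2 it lay between 0.44 and 0.60. The next bin, the first beyond tlh2, had a difference of -0.016; its ratio was -0.20 in WT, -0.22 in clr3D, -0.30 in IRD2 and -0.12 with both mutations. Farther out the difference was 0.38 at 4536501 to 4537510 and 0.26 in the next bin, and lay at -0.20, -0.18 and -0.19 in the outermost 3 bins, of which the first is the lowest of the 34.

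The same deletion in IRD2 cells, read as the double mutant minus IRD2, went with a higher ratio out to the chromosome end. In the terminal stretch the FLAG channel differed by -0.014 and the extract by -0.35, so this ratio difference lay in a lower extract signal. The median ratio difference was 0.36 over all tiles (SD 0.24), and 406 tiles were higher by over 0.3, which is 59.6% against 7.51% of all tiles. It was 0.23 in the inner stretch, 0.47 in the middle stretch, 0.60 in tlh2 and 0.38 in the terminal stretch (SD 0.12, 0.27, 0.16 and 0.22). All 120 tlh2 tiles and 133 of the 137 terminal tiles were higher. With loess these medians were 0.11, 0.29, 0.38 and 0.24, and with tiles of 1 place that of tlh2 was 0.23. The highest bin, at 4525501 to 4526510 in the pseudogene SPBCPT2R1.07c, had 0.74, and the lowest, at 4514501 to 4515510 in the inner stretch, 0.049. The double mutant against WT gave 0.44 over all tiles, with 472 tiles (69.3%, against 8.74% of all tiles) higher by over 0.3. Its medians were 0.44 in the inner stretch, 0.51 in the middle stretch, 0.58 in tlh2 and -0.21 in the terminal stretch, with -0.019 in the last after normexp, -0.053 with tiles of 1 place and -0.081 after a GC correction. With tiles of 1 place the tlh2 median was 0.32. Over all tiles the FLAG channel of the double mutant minus WT differed by 0.13 and the extract by -0.29. In tlh2 the 2 channels differed by 0.038 and -0.54, so nearly all of its ratio difference lay in a lower extract signal. In the terminal stretch they differed by -0.17 and 0.033. The highest and lowest bins were those at 4526501 to 4527510 (0.85) and 4538501 to 4539510 (-0.52).

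**Figure D2:**
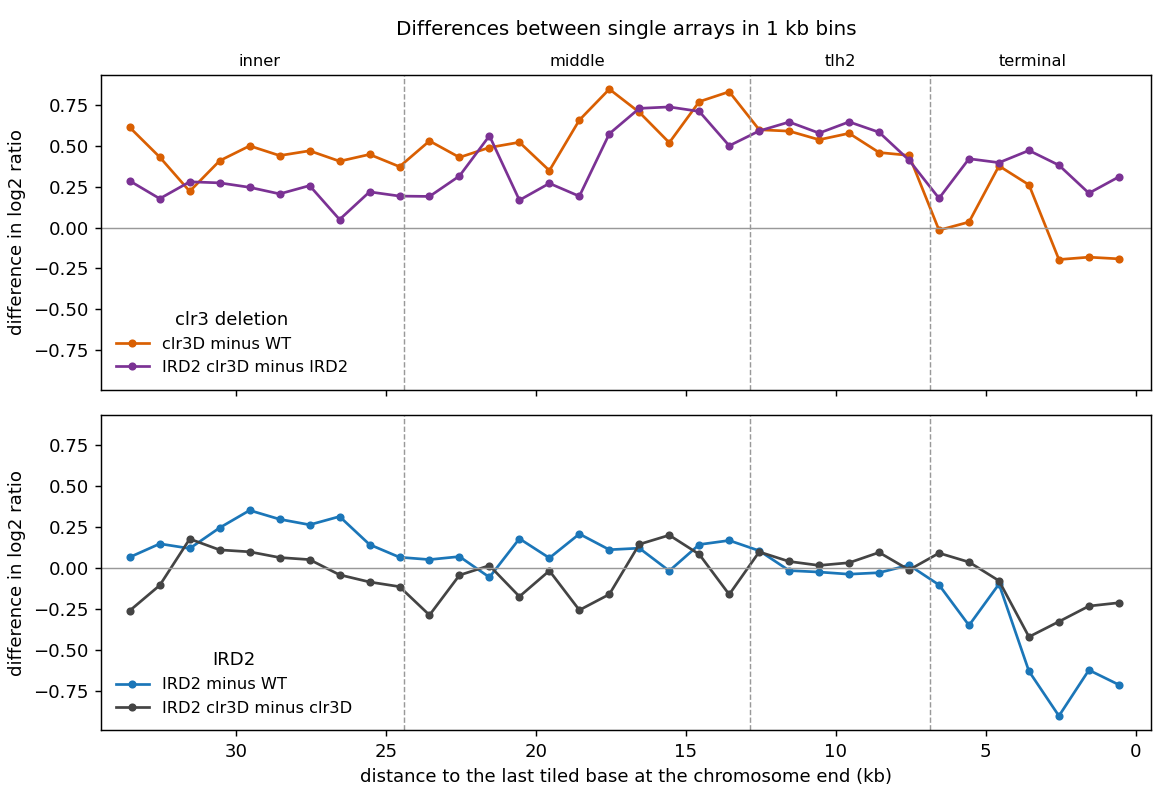
Differences in log2 ratio between single arrays in 1 kb bins against the distance in kb to the last tiled base; the upper panel shows the clr3 deletion with and without IRD2, the lower panel IRD2 with and without clr3. In the upper panel the lines lie together at 0.4 to 0.65 over tlh2 and, beyond it, the double mutant minus IRD2 line is the higher one in every bin, and in the lower panel both lie near 0 over tlh2 and below 0 in the last 4 kb.

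IRD2 against WT showed another pattern, with its largest difference within the last 4 kb. Over all tiles the median was 0.062 (SD 0.34), but the terminal stretch had -0.49 (SD 0.39), and 94 of its 137 tiles were lower in IRD2 by over 0.3. These are all the tiles of the 34.06 kb that were lower by over 0.3, 13.8% of the 681, against 12% of all tiles of the array, so over the whole DNA this share is near the background. The tlh2 median was 0.0037 (SD 0.094), with 61 tiles higher and 59 lower, and the middle stretch had 0.090 (SD 0.15). The inner stretch was higher in IRD2, by 0.22 (SD 0.14), with 178 of 193 tiles above 0 and 58 above 0.3; over all 681 tiles 77 were above 0.3, 11.3% against 5.16% of all tiles. The highest bin lay at 4511501 to 4512510 (0.35) and the lowest at 4538501 to 4539510 (-0.90, SD between 20 tiles 0.13). In this lowest bin the ratio was 0.20 in WT, 0.0033 in clr3D, -0.70 in IRD2 and -0.32 with both mutations. The outer neighbours had -0.62 and -0.71 and the inner neighbour -0.63, while the bin before that, at 4536501 to 4537510, had -0.10.

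In cells that lacked clr3, read as the double mutant minus clr3D, the IRD2 medians were smaller in size in the inner, middle and terminal stretches and not in tlh2, which was not tested. The median was -0.00073 over all tiles (SD 0.23), 0.033 in the inner stretch, -0.021 in the middle stretch, 0.048 in tlh2 and -0.14 in the terminal stretch (SD 0.27). Tiles lower by over 0.3 numbered 87, 12.8% of the 681 against 8.43% of all tiles, and 45 of these lay in the terminal stretch. The lowest bin was that at 4537501 to 4538510 (-0.42) and the highest that at 4525501 to 4526510 (0.20). The departure from additivity is the difference that clr3 deletion made in IRD2 cells minus the one it made otherwise. Its median was 0.37 in the terminal stretch (SD 0.27, 117 of 137 tiles above 0), 0.052 in tlh2, -0.14 in the middle stretch and -0.23 in the inner stretch. It has no test, since 4 single arrays leave no error for it, and the comparisons that make it up share arrays.

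The 2 channels carried unequal parts of these differences. Over the 681 tiles the clr3D minus WT difference was 0.10 in the FLAG-bound DNA (SD between tiles 0.28) and -0.35 in the extract DNA (SD 0.23), so most of the ratio difference lay in a lower extract signal. In tlh2 the FLAG channel differed by 0.12 and the extract by -0.42, and in the middle stretch by 0.18 and -0.40. In the terminal stretch the 2 channels were lower in clr3D by about as much, at -0.21 and -0.23. For the double mutant minus IRD2 the FLAG channel of tlh2 differed by 0.049 and its extract by -0.54, and that of the terminal stretch by -0.014 and -0.35. For IRD2 minus WT the terminal stretch differed by -0.17 in FLAG and by 0.37 in the extract, with 0.57 and 0.57 in the extract of the outermost 2 bins. The extract signal of tlh2 was high in every array, with medians above a typical tile of 2.09 (WT), 1.69 (clr3D), 2.12 (IRD2) and 1.60 (double mutant). The part of the extract DNA amount in the ratio differences was not tested.

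**Figure D3:**
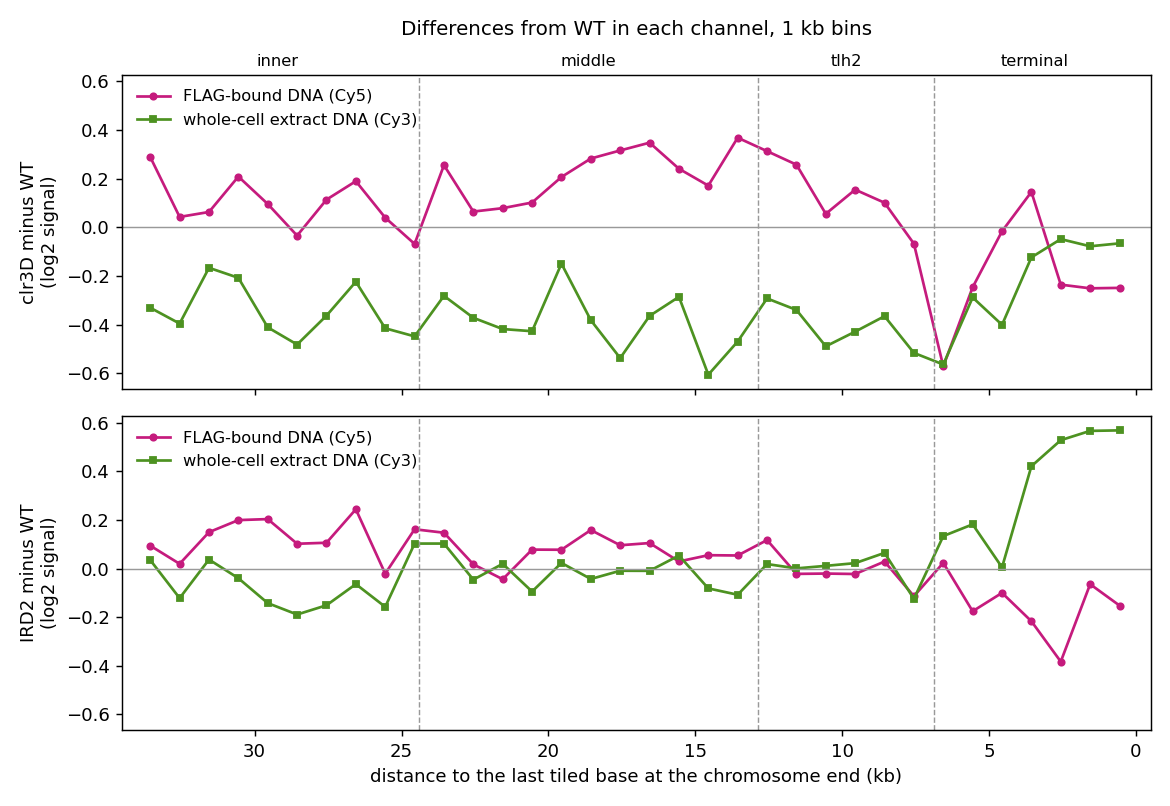
Difference from WT in each channel alone (log2 signal minus the array median of that channel) in 1 kb bins against the distance in kb to the last tiled base, for clr3D above and IRD2 below. In clr3D the extract line lies below 0 in every bin. The FLAG line of clr3D lies mostly above 0 out to tlh2 and mostly below 0 beyond it. In IRD2 the extract line climbs to about 0.57 in the outermost bins.

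An additive fit of the 4 arrays on clr3 and IRD2 was made with limma over all 2205 bins of 1 kb and over all 2194 genes, with Benjamini-Hochberg adjustment. It is the only test the design allows, and it takes the departure from additivity as its error, with 1 residual degree of freedom per feature. The clr3 term passed an adjusted p of 0.05 upwards in 13 of the 34 bins, against 1.86% of all bins, and downwards in 0 (0 at an unadjusted p under 0.05 too; all bins 0.726%). These were all 6 bins of tlh2, 6 of 11 in the middle stretch, 1 of 7 in the terminal stretch and 0 of 10 in the inner stretch. The IRD2 term passed downwards in 2 bins, 5.88% of the 34 against 4.31% of all bins, so this share is near the background. Both are terminal, at 4537501 to 4538510 with -0.52 (SE 0.088, limma adjusted p 0.0167) and at 4538501 to 4539510 with -0.61 (SE 0.13, limma adjusted p 0.0368). The IRD2 term passed upwards in 0 bins, here and on the whole array (0%), with 1 of the 34 at an unadjusted p under 0.05. None of the 13 or 2 calls was made when the Cy5 channel stood alone, after normexp background correction or with the arrays set to 1 scale.

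The genes were tested in the same way. The clr3 term was higher in 21 of 36 genes (all genes 3.83%), 4 of 5 coding genes, 2 of 4 pseudogenes and 15 of 27 non-coding RNA genes, and lower in 0 (1 at an unadjusted p under 0.05; all genes 0.912%). Of the 24 genes with a clr3D minus WT difference over 0.3, 14 had one lower by over 1.5 times with loess, among them SPNCRNA.6640 with 0.15. None of the 21 was called with the Cy5 channel alone or with the arrays set to 1 scale. The IRD2 term was lower in 4 genes, 11.1% of the 36 against 7.06% of all genes, a share not far from the background. All 4 are non-coding RNA genes of the terminal stretch. The IRD2 term was higher in 0 genes (all genes 0.0912%), with 1 at an unadjusted p under 0.05. The 4 lower genes were not called under the same 2 alternatives either. Over genes the estimated spread showed no more scatter than 1 common value gives, so limma used 1 common SD of 0.10 for all of them and each term has an SE of 0.10. The adjusted p of a gene therefore does not depend on its own departure from additivity. A departure combines 4 values, so this SD of 1 value is not a measure for it. Departures of the terminal genes are given with the genes, and that of SPNCRNA.6656 was -0.068. Those of other stretches included -0.46 in SPNCRNA.6642 of the middle stretch and -0.25 in SPNCRNA.6637 of the inner stretch. Overlapping genes share tiles, and DNA hybridisation does not tell strands apart, so an antisense pair is not read apart: 152 of the 681 tiles lie in more than 1 gene, 232 in 1 and 297 in none.

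In the inner stretch SPBCPT2R1.01c and SPBCPT2R1.04c encode proteins of the DUF999 family, found in S. pombe only according to the annotation. The mean ratio of SPBCPT2R1.01c over its 19 tiles was 0.29 in WT, 0.75 in clr3D, 0.43 in IRD2 and 0.64 with both mutations. SPBCPT2R1.04c (24 tiles) was at 0.24 in WT, 0.66 in clr3D, 0.40 in IRD2 and 0.59 with both mutations. Both were highest in clr3D and lowest in WT, with the double mutant between clr3D and IRD2, and both passed for clr3 (0.33 and 0.31, limma adjusted p 0.0229 and 0.044). The short coding gene SPBCPT2R1.03 had -0.11 in WT, 0.39 in clr3D, 0.13 in IRD2 and 0.41 with both mutations (clr3 term 0.39, limma adjusted p 0.00406). SPBCPT2R1.02 had 0.41 in WT, 0.58 in clr3D, 0.39 in IRD2 and 0.67 with both mutations and was the coding gene that did not pass (clr3 term 0.23, limma adjusted p 0.281). The pseudogene SPBCPT2R1.05c, with 3 tiles, had 0.0064 in WT, 0.33 in clr3D, 0.19 in IRD2 and 0.34 with both mutations (clr3 term 0.24, limma adjusted p 0.238). WT and IRD2 lay below clr3D and the double mutant in each of these 5 genes.

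Of the non-coding RNA genes of the inner stretch, SPNCRNA.6637, which crosses the inner edge with 13 of its 17 tiles inside, had -0.35 in WT, 0.26 in clr3D, -0.29 in IRD2 and 0.079 with both mutations. SPNCRNA.6638, antisense to SPBCPT2R1.02 over part of its length, had 0.35 in WT, 0.65 in clr3D, 0.38 in IRD2 and 0.71 with both mutations. SPNCRNA.6639 had -0.12 in WT, 0.43 in clr3D, 0.23 in IRD2 and 0.54 with both mutations. All 3 passed for clr3 (terms 0.49, 0.32 and 0.43, limma adjusted p 1.12e-04, 0.0357 and 0.0011). SPNCRNA.6639 was the gene of the 36 with the highest IRD2 minus WT difference (0.35), while lower values of larger size lay in the terminal stretch. Its IRD2 term was 0.23 (limma adjusted p 0.201).

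The middle stretch held the highest ratios of the genes before tlh2. The antisense pair SPNCRNA.6640 and SPNCRNA.6641 stood high in every array. SPNCRNA.6640 (36 tiles) had 0.65 in WT, 1.11 in clr3D, 0.65 in IRD2 and 1.09 with both mutations, and SPNCRNA.6641 (35 tiles) had 0.54 in WT, 1.02 in clr3D, 0.50 in IRD2 and 1.02 with both mutations. In both, WT and IRD2 were close to each other, and so were clr3D and the double mutant (clr3 terms 0.45 and 0.50, limma adjusted p 6.40e-04 and 7.09e-05). The next group did not pass for clr3. Its pseudogene SPBCPT2R1.06c had 0.47 in WT, 0.80 in clr3D, 0.47 in IRD2 and 0.73 with both mutations (clr3 term 0.30, limma adjusted p 0.0545), SPNCRNA.6642, with 4 tiles, 0.19 in WT, 0.70 in clr3D, 0.42 in IRD2 and 0.48 with both mutations (clr3 term 0.29, limma adjusted p 0.0786), and SPNCRNA.6643 0.50 in WT, 0.79 in clr3D, 0.48 in IRD2 and 0.79 with both mutations (clr3 term 0.30, limma adjusted p 0.0655).

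Nearer to tlh2, SPBCPT2R1.07c, annotated as a malic enzyme pseudogene (34 tiles), had 0.30 in WT, 0.84 in clr3D, 0.30 in IRD2 and 1.00 with both mutations (clr3 term 0.62, limma adjusted p 9.28e-08). SPNCRNA.6644, within the same DNA, had 0.28 in WT, 0.82 in clr3D, 0.29 in IRD2 and 0.99 with both mutations. SPNCRNA.6645 had -0.10 in WT, 0.63 in clr3D, 0.025 in IRD2 and 0.77 with both mutations, and its clr3 term of 0.74 (SE 0.10, limma adjusted p 5.50e-11) was the largest of the 36 genes. In these 3 genes the double mutant was the highest array. The pseudogene SPBCPT2R1.10, which ends where tlh2 begins, had 0.24 in WT, 0.91 in clr3D, 0.38 in IRD2 and 0.84 with both mutations (clr3 term 0.57, limma adjusted p 2.00e-06), and SPNCRNA.6646, which spans that border, had 0.10 in WT, 0.72 in clr3D, 0.22 in IRD2 and 0.74 with both mutations (clr3 term 0.57, limma adjusted p 2.00e-06).

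**Figure D4:**
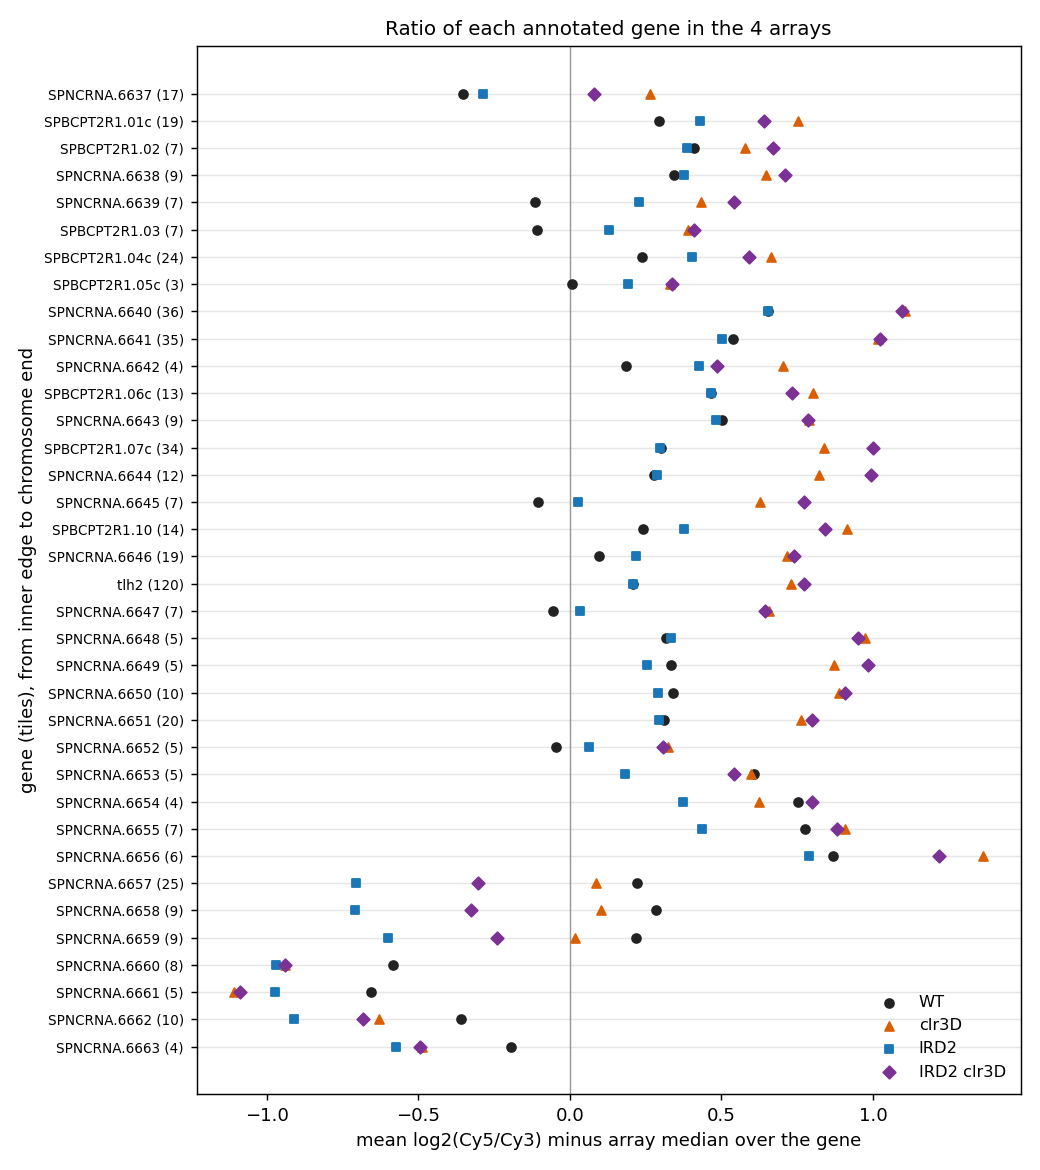
Mean log2(Cy5/Cy3) minus the array median over each of the 36 annotated genes, from the inner edge at the top to the chromosome end at the bottom, with the number of tiles in brackets and 1 point per array. Down to SPNCRNA.6652 the clr3D and double mutant points lie to the right of the WT and IRD2 points, and in the genes from SPNCRNA.6657 outwards the WT point is farthest right.

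The helicase gene tlh2, also named SPBCPT2R1.08c, differed between arrays by the state of clr3. Its mean over 120 tiles was 0.21 in WT, 0.73 in clr3D, 0.21 in IRD2 and 0.77 with both mutations. IRD2 differed from WT by 0.0012, and the double mutant from clr3D by 0.044, with 80 of 120 tiles higher in the double mutant. Along the gene the FLAG channel of clr3D minus WT went from 0.31 in its first bin to -0.068 in its last. Its clr3 term was 0.54 (SE 0.10, limma adjusted p 7.46e-06) and its departure from additivity 0.043. The match of 505 positions, of which the 60 printed bases are a part, held 8 tiles at 4530451 to 4530860, whose median ratio was 0.32 in WT, 0.75 in clr3D, 0.23 in IRD2 and 0.76 with both mutations. Its median clr3D minus WT difference was 0.45 (SD 0.13). That of the other 112 tiles of the gene was 0.53 (SD 0.13) and that of the 9 tiles of the matching outer repeat 0.42 (SD 0.053), with no test between them. The levels of that repeat were 0.34 in WT, 0.72 in clr3D, 0.30 in IRD2 and 0.71 with both mutations.

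Non-coding RNA genes within tlh2, all antisense to it, are read from tiles of tlh2 itself, so their values repeat parts of its own. In each of them WT and IRD2 were below clr3D and the double mutant. SPNCRNA.6647 had -0.056 in WT, 0.66 in clr3D, 0.032 in IRD2 and 0.65 with both mutations, SPNCRNA.6648 0.32 in WT, 0.97 in clr3D, 0.33 in IRD2 and 0.95 with both mutations, and SPNCRNA.6649 0.33 in WT, 0.87 in clr3D, 0.26 in IRD2 and 0.98 with both mutations. SPNCRNA.6650 had 0.34 in WT, 0.89 in clr3D, 0.29 in IRD2 and 0.91 with both mutations, and SPNCRNA.6651 0.31 in WT, 0.76 in clr3D, 0.29 in IRD2 and 0.80 with both mutations. SPNCRNA.6652, which lies nearest to the outer end of tlh2 and of which the tiles mostly match a single place, had lower ratios, at -0.046 in WT, 0.32 in clr3D, 0.064 in IRD2 and 0.31 with both mutations. All 6 passed for clr3, with terms from 0.31 (SPNCRNA.6652) to 0.66 (SPNCRNA.6647) and limma adjusted p from 9.63e-09 to 0.048. For SPNCRNA.6651 and SPNCRNA.6652 the FLAG channel of clr3D was not above that of WT (-0.011 and -0.22), and the extract differed by -0.47 and -0.59. The 8 tlh2 tiles that match 1 place had a clr3D minus WT median of 0.33 (SD 0.14) and the other 112 a median of 0.54 (SD 0.12).

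Beyond tlh2 the 11 non-coding RNA genes differed with distance. Nearest to tlh2, SPNCRNA.6653 had 0.61 in WT, 0.60 in clr3D, 0.18 in IRD2 and 0.54 with both mutations, SPNCRNA.6654, with 4 tiles, 0.75 in WT, 0.62 in clr3D, 0.37 in IRD2 and 0.80 with both mutations, and SPNCRNA.6655 0.78 in WT, 0.91 in clr3D, 0.43 in IRD2 and 0.88 with both mutations. In these 3 genes IRD2 alone was low, and their departures from additivity were 0.37, 0.55 and 0.31. SPNCRNA.6656, the gene with the highest ratios of the 36, had 0.87 in WT, 1.36 in clr3D, 0.79 in IRD2 and 1.22 with both mutations and was the 1 terminal gene to pass for clr3 (clr3 term 0.46, limma adjusted p 3.52e-04).

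The next genes outwards carried 3 of the 4 IRD2 calls, and these 3 share tiles. SPNCRNA.6657 (25 tiles) had 0.22 in WT, 0.087 in clr3D, -0.71 in IRD2 and -0.30 with both mutations, with an IRD2 minus WT difference of -0.93 (SD between tiles 0.13). SPNCRNA.6658 and SPNCRNA.6659, which overlap it on the other strand, had 0.28 in WT, 0.10 in clr3D, -0.71 in IRD2 and -0.33 with both mutations, and 0.22 in WT, 0.018 in clr3D, -0.60 in IRD2 and -0.24 with both mutations. In all 3 the order was WT, clr3D, double mutant and IRD2 from high to low. Their IRD2 terms were -0.66, -0.71 and -0.54 (limma adjusted p 4.28e-09, 1.56e-10 and 4.31e-06). Their departures from additivity were 0.54, 0.56 and 0.56, which the common SD behind these adjusted p leaves out. In the bin fit, the bin at 4538501 to 4539510 in this DNA had a limma adjusted p of 0.0368. In SPNCRNA.6657 the FLAG channel of IRD2 differed from WT by -0.44 and the extract by 0.49.

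In the outermost 4 genes the ratio was below 0 in every array. SPNCRNA.6660 had -0.58 in WT, -0.94 in clr3D, -0.97 in IRD2 and -0.94 with both mutations, SPNCRNA.6661 -0.66 in WT, -1.11 in clr3D, -0.97 in IRD2 and -1.09 with both mutations, SPNCRNA.6662 -0.36 in WT, -0.63 in clr3D, -0.91 in IRD2 and -0.68 with both mutations, and SPNCRNA.6663 -0.19 in WT, -0.49 in clr3D, -0.57 in IRD2 and -0.49 with both mutations. WT was the highest array in each of them. SPNCRNA.6662 passed for IRD2 (IRD2 term -0.30, limma adjusted p 0.0375), with a departure from additivity of 0.50, larger than the term, and a double mutant minus clr3D difference of -0.053. The departures of SPNCRNA.6660, SPNCRNA.6661 and SPNCRNA.6663 were 0.39, 0.34 and 0.37. SPNCRNA.6662 had a FLAG difference from WT of -0.072 and an extract difference of 0.49. SPNCRNA.6660 and SPNCRNA.6661 overlap, and the SD between their tiles was large for IRD2 minus WT (0.43 and 0.56). Tiles of the terminal stretch with 1 place in the reference had an IRD2 minus WT median of -0.37 (95 tiles, SD 0.39) and those with several -0.76 (42 tiles, SD 0.36). The terminal stretch is poor in G and C (median 30% of bases), and arm tiles of like content had an IRD2 minus WT median of 0.047 (SD 0.23).

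Beside its neighbours, tlh2 had a clr3D minus WT ratio difference nearer to that of the inner part of the right end than to that of the centromeric repeats. The extract was lower in clr3D in all 3, by -0.42 in tlh2, -0.34 in the inner part and -0.50 in the repeats. The FLAG channel differed by 0.12, 0.16 and -0.098, so the ratio difference of the repeats lay in the extract alone. With loess the tlh2 median was 0.29, and the order of the regions under loess was not tested. For clr3D minus WT the outer repeats of centromere II had a median of 0.40 (SD 0.12) and the inner part of the right end 0.52 (SD 0.10), against 0.53 in tlh2 and 0.45 over the 34.06 kb. In IRD2 cells clr3 deletion went with 0.37 in the outer repeats and 0.60 in tlh2, but with 0.22 in the inner part of the right end and 0.23 in the inner stretch. For IRD2 minus WT the inner part of the right end was at 0.20 (SD 0.17), close to the 0.22 of the inner stretch beside it, and the outer repeats at -0.092 (SD 0.13). The terminal stretch, at -0.49, was the lowest of these regions. No test was made of differences between regions, since each rests on single arrays.

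**Figure D5:**
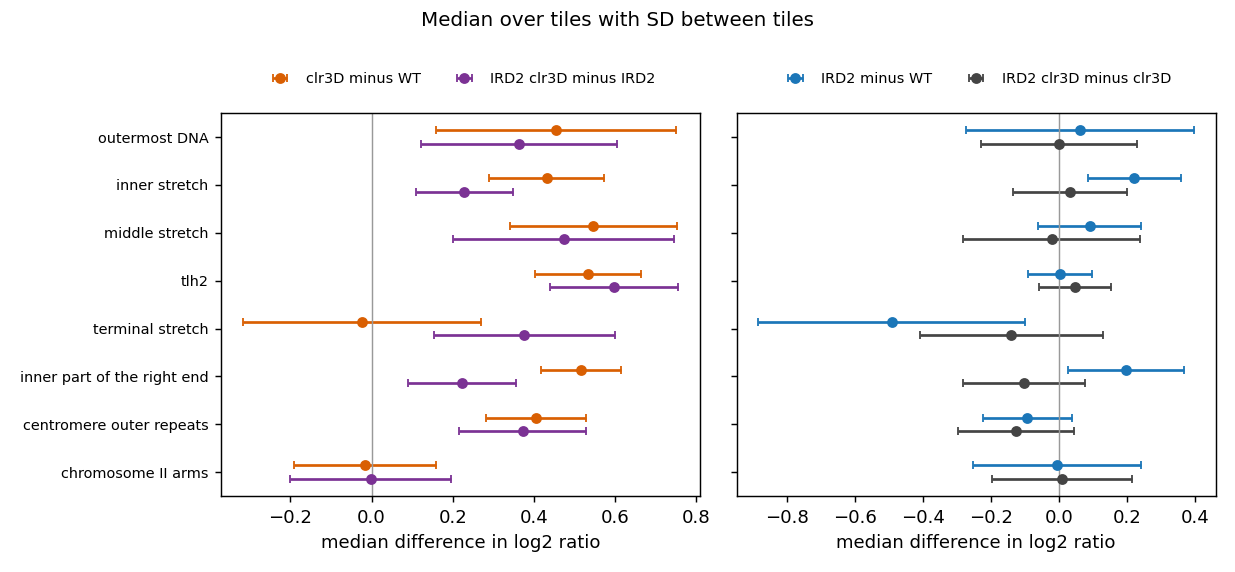
Median difference in log2 ratio over the tiles of each region, with bars of 1 SD between tiles, for the clr3 deletion (left) and IRD2 (right), each with and without the other mutation. The terminal stretch is the region where clr3D minus WT lies near 0 while the double mutant minus IRD2 does not, and where IRD2 minus WT is lowest.

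Genes of the inner part of the right end and of silencing itself gave a frame for these values. The genes of the gal1 side with tiles were gal1, SPBPB2B2.14c, SPBPB2B2.15, SPBPB2B2.16c, ftm7, SPBPB2B2.18 and SPBPB2B2.19c, while gal7 and gal10 were not measured. All 7 passed upwards for clr3 (median term 0.38, against -0.011 over all genes) and 0 for IRD2 in either direction (median 0.053). With Cy5 alone or with the arrays set to 1 scale 0 of all 2194 genes passed upwards for clr3, these 7 included. Of 40 named genes for heterochromatin and chromosome-end proteins 4 lie on the tiles: hrp1, tas3, clr1 and slm9. None of the 4 passed in either term, with medians of 0.049 for clr3 and 0.091 for IRD2. The 36 genes of the outermost DNA had medians of 0.33 and 0.0037.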

How the data were processed

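Values came from 4 scanner files of 2-colour Agilent 60-mer arrays. The deposited spot intensity values, per the file headers, come from Agilent Feature Extraction 12.0.3.1, which gives raw medians, signals after background subtraction, and processed signals after a further linear dye normalisation. The deposited series table holds a linear Cy5 over Cy3 ratio, which equals that of the processed signals. The Cy5 label marks FLAG-bound DNA and Cy3 extract DNA, per the labels' protocols. The log2 ratio of processed signals was centred on each array's median over tiles that were neither control spots (1227 per array) nor outlier spots (9 to 21), with no loess step.

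A gene's value is the mean over tiles whose midpoint lies in it, a bin's the mean over its tiles (at least 3). The headers name no build. Tiles were placed on ASM294v3 by taking each 100 bp assembly gap as 1000 bp on the array; extract signal followed GC content best at an offset of 0 bp (r 0.67, against 0.33 at 200 to 300 bp away), and in 21 other windows within 5 bp. Gene names and printed sequences rest on this placement, whereas other coordinates are those of the files. Copies were counted with BLAST 2.17.0. Differences of single arrays have no test. The additive fit was made with limma 3.58.1 (lmFit, eBayes) under R 4.3.3 on all bins and all genes. The fit was tested on simulated data with additive clr3 changes and independent noise of the spread that it had itself estimated. There it recovered 99.9% of genes and 99.6% of bins changed by 0.6, and 40.4% and 22.8% of those changed by 0.3. The simulation held no departure from additivity, so these rates do not measure how the fit performs on these arrays. The raw files hold no mean signals, so normexp (offset 50) used raw medians with the background medians. Nothing in the labels gives separate cultures. They also carry a second growth and fixation protocol, written for other antibodies; that of the FLAG cells is the one used here. The members and lists, the 4 stretches and the threshold of 0.3 were chosen with earlier results of these data known. All 36 genes of the DNA are named, and in each difference the highest and lowest bin; SPNCRNA and coding genes singled out further were chosen after their values were seen. Alternatives were other background corrections, loess, Cy5 alone, other tile filters, centrings, scalings and bin widths, and, chosen after seeing the data, a GC correction and tiles of 1 strand.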

Additional observations from a re-analysis of the deposited data

Results flagged for a closer look

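Several effects had opposite signs with and without the other mutation; these are values of 4 single arrays, and the differences were not tested. In the terminal stretch clr3D minus WT was -0.024 and the double mutant minus IRD2 0.38. Over all 681 tiles IRD2 minus WT was 0.062 and the double mutant minus clr3D -0.00073, and in the middle stretch 0.090 and -0.021.

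Among the 36 genes the signs of the clr3 deletion without and with IRD2 differed in 8, with values of SPNCRNA.6653 -0.010 and 0.36, SPNCRNA.6654 -0.13 and 0.43, SPNCRNA.6657 -0.14 and 0.40. For SPNCRNA.6658 they were -0.18 and 0.38, for SPNCRNA.6659 they were -0.20 and 0.36, for SPNCRNA.6660 they were -0.36 and 0.030. For SPNCRNA.6662 they were -0.27 and 0.23, for SPNCRNA.6663 they were -0.29 and 0.079.

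The signs of IRD2 without and with the clr3 deletion differed in 18 genes, with values of SPNCRNA.6637 0.065 and -0.18, SPBCPT2R1.01c 0.14 and -0.11, SPBCPT2R1.02 -0.025 and 0.091. For SPBCPT2R1.04c they were 0.17 and -0.072, for SPNCRNA.6641 they were -0.035 and 0.0074, for SPNCRNA.6642 they were 0.24 and -0.22. For SPBCPT2R1.06c they were 0.00033 and -0.067, for SPBCPT2R1.07c they were -0.0032 and 0.16, for SPBCPT2R1.10 they were 0.14 and -0.074. For SPNCRNA.6647 they were 0.088 and -0.011, for SPNCRNA.6648 they were 0.017 and -0.022, for SPNCRNA.6649 they were -0.078 and 0.11. For SPNCRNA.6650 they were -0.050 and 0.022, for SPNCRNA.6651 they were -0.015 and 0.035, for SPNCRNA.6652 they were 0.11 and -0.017. For SPNCRNA.6654 they were -0.38 and 0.17, for SPNCRNA.6660 they were -0.39 and 0.0015, for SPNCRNA.6661 they were -0.32 and 0.020. Many of these values are smaller than the common SD of the fit.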

How the results depend on the processing

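With tiles of 1 place only, most of which lie in the terminal stretch, the medians over the whole DNA were 0.0329 for clr3D minus WT, -0.334 for IRD2 minus WT, 0.0455 for the double mutant minus WT and 0.308 for the departure from additivity. With Cy5 alone clr3D minus WT was 0.0997 and the double mutant minus IRD2 0.067. The 13 bins called for clr3 became 0 with normexp, Cy5 alone, one scale of median absolute deviation or minus-strand tiles, 5 with loess, 23 with plus-strand tiles, 28 with the GC correction and 29 with 500 bp bins. With tiles of 1 place 0 were called, but 8 of the 34 bins were measured and 2 of the 13 were among them. The 2 bins called for IRD2 became 0 with normexp, Cy5 alone, the common scale or minus-strand tiles, 1 with background-subtracted signals, 4 with plus-strand tiles and 6 with 500 bp bins. The 21 genes called for clr3 became 13 with loess, 1 with tiles of 1 place (12 of 36 measured, 3 of the 21 among them) and 0 with Cy5 alone or the common scale, and the 4 called for IRD2 became 0 with Cy5 alone or the common scale. With the common scale or one strand the medians of the whole DNA moved by less than 1 SD between tiles, and the cause of the lost calls was not tested. Among values over 0.3 in size, signs turned with Cy5 alone for the double mutant minus IRD2 in the terminal stretch (-0.0136), for clr3D minus WT in SPBCPT2R1.05c (-0.092), SPNCRNA.6651 (-0.0112) and SPNCRNA.6652 (-0.216), and for IRD2 minus WT in SPNCRNA.6654 (0.000596) and SPNCRNA.6661 (0.053). With tiles of 1 place they turned for IRD2 minus WT in SPNCRNA.6660 and SPNCRNA.6661 (0.0185 in each). These are the 8 such turns; 75 smaller values turned sign too, 69 of them under 0.1 in size and 13 moving by over 1 SD between tiles. The latter include tlh2, double mutant minus clr3D (-0.0898 with Cy5 alone), and IRD2 minus WT in SPBCPT2R1.01c (-0.0235) and SPNCRNA.6642 (-0.0055), and over the whole DNA IRD2 minus WT and the departure with tiles of 1 place, given above. The terminal double mutant minus clr3D median became 0.0126 with Cy5 alone. Besides the 8, 150 of 1198 alternative values of 106 results moved by over 1 SD between tiles or, for counts, by over 1.5 times. No paired analysis was possible because each genotype has 1 array, and no array could be left out of the fit.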

Other observations

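Within the middle stretch tiles between annotated genes were lower than tiles in genes in WT (0.0028 against 0.41, medians of 115 and 116 tiles), and nearer to each other in clr3D (0.74 against 0.89). Their clr3D minus WT medians were 0.67 (SD 0.21) and 0.49 (SD 0.15). For the same deletion in IRD2 cells the order was the other way, 0.32 (SD 0.30) between genes and 0.53 (SD 0.22) in genes, and the double mutant minus WT had 0.50 and 0.53. Tiles between genes held less G and C (median 30% against 40%). In the inner stretch IRD2 minus WT was 0.29 between genes (109 tiles, SD 0.12) and 0.14 in genes (84 tiles, SD 0.13), with 30% and 35% of G and C. The part of base composition in these values was not tested.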
